A study of Homo sapiens with 36 samples.

Results

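The comparison is a swap of the C-terminal disordered region on the DNA-binding N-terminal part of HIF-2α. It uses 6 of the 36 samples of a Cut&Run series in 786-O cells, namely the 3 anti-V5 libraries of cells with HIF-2α/1α and the 3 anti-V5 libraries of cells with exogenous HIF-2α, chosen by sample label. Their peak lists on chromosomes 1 to 22, X and Y held 83303 of the 213711 peaks in the 18 anti-V5 lists. Both proteins start with the same N-terminal part of HIF-2α, which carries the DNA-binding and dimerization domains. In HIF-2α/1α, residues 1 to 365 of HIF-2α are followed by residues 364 to 826 of HIF-1α, and in HIF-2α the protein keeps its own C-terminal part. Both lines share the same background: 786-O is a clear cell renal carcinoma line that lacks working VHL, has no functional HIF-1α and keeps its own untagged HIF-2α. Both proteins carry V5 and HaloTag at the N terminus, are driven by an L30 promoter and were stably integrated by PiggyBac transposition with drug selection, and the methods describe no cloning step for them. How much tagged protein each line holds was not analysed here, and a difference in that amount cannot be told apart from the swap. The other lines used for comparison were cells with exogenous HIF-1α or HIF-1α/2α (residues 1 to 363 of HIF-1α and 366 to 870 of HIF-2α), the HIF-2α knock-in line (KIN, 1 clone with tags on the endogenous protein) and wild-type cells without a tag (WT), each with 3 anti-V5 libraries.

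Hypoxia-inducible factors are dimers of HIF-1β with an oxygen-sensitive partner, HIF-1α or HIF-2α. The partner dimerizes and touches DNA through its N-terminal part, and the dimer reads a short motif, the hypoxia response element (HRE), with the core ACGTG or GCGTG. The C-terminal parts hold the degradation and transactivation domains, are largely disordered and differ much more between the isoforms than the N-terminal parts do. HIF-1α is best known for glycolytic genes, and HIF-2α for growth and lipid genes in renal carcinoma, where loss of VHL keeps HIF-2α stable in normal oxygen. In Cut&Run, an antibody tethers a nuclease to chromatin, and the released fragments pile up where the tagged protein was bound. A peak list gives the stretches with more fragments than the local background, and the summit is the base with the highest pile.

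Depth, recovered from the lists as the genome-wide mean of fragments per base, was 0.4435, 0.625 and 0.2926 in HIF-2α/1α replicates 1, 2 and 3 and 0.3272, 0.5362 and 0.2534 in HIF-2α. The lists were merged into 25285 regions that at least 2 of the 18 libraries called and fewer than 2 WT libraries called, and 22803 of these were called in any of the 6 lists. The 2 longest lists came from the 2 deepest libraries, so calls are given both in the full lists and in lists of equal length, where each list was cut to its 5906 strongest peaks, the length of the shortest.

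To show what the sites look like, the bases around HRE cores are printed for 8 regions whose summit signal differed between the lines, 5 higher and 3 lower in HIF-2α/1α, and for the upstream TGFA region and the PTPRN region, loci that the study itself chose on these samples. Sequences are the plus strand of hg38, 5′ to 3′, 61 bases each. Capitals mark 1 HRE core, as ACGTG or GCGTG, or as CACGT or CACGC where the core is on the minus strand. Other cores in the same stretch are left in lower case. Of all 25285 regions, 24.3% hold a core on either strand within 50 bp of the summit (12.0% ACGTG and 14.2% GCGTG, with some holding both). Of the 2959 regions called in all 6 lists, from which the printed ones come, 32.2% do (18.9% ACGTG and 17.7% GCGTG). Not every region named below that holds a core is printed. Those near CNOT8 and FAM131A, higher in HIF-2α/1α, hold TACGTG, as does that near CITED2, lower in HIF-2α/1α.
NGFR, higher in HIF-2α/1α, chr17:49456521-49456581: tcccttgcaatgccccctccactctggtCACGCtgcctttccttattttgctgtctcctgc
SLC25A10, higher in HIF-2α/1α, chr17:81735830-81735890: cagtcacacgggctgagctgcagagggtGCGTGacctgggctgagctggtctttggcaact
ATP2B1, higher in HIF-2α/1α, chr12:89709564-89709624: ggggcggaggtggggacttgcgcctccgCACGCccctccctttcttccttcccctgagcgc
CRB2, higher in HIF-2α/1α, chr9:123340345-123340405: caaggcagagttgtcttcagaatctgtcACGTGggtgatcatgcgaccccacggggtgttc
HDAC5, higher in HIF-2α/1α, chr17:44087088-44087148: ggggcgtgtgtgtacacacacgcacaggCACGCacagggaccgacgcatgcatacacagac
HSD3B7, lower in HIF-2α/1α, chr16:30986051-30986111: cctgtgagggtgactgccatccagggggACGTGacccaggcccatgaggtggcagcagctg
RORA, lower in HIF-2α/1α, chr15:60972541-60972601: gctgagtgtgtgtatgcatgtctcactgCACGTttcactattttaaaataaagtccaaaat
SLC38A4, lower in HIF-2α/1α, chr12:46703246-46703306: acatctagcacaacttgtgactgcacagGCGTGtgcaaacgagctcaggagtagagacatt
TGFA upstream, lower in HIF-2α/1α, chr2:70596981-70597041: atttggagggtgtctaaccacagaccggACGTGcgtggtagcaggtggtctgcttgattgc
PTPRN, higher in HIF-2α/1α, chr2:219298920-219298980: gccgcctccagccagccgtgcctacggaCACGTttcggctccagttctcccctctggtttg

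First, the lists were compared by size and by position relative to genes. Cells with HIF-2α/1α gave 16977, 20808 and 12371 peaks, and cells with HIF-2α gave 6590, 20651 and 5906. Replicate 2 of HIF-2α was as long as the longest HIF-2α/1α list, and the groups overlapped (log2 difference 0.81, HIF-2α/1α minus HIF-2α, two-sided exact permutation p = 0.3). Promoter peaks, with the summit within 1 kb of the start site (TSS) of a protein-coding gene, made up 30.8, 29.3 and 30.0% of the HIF-2α/1α lists and 25.1, 25.2 and 25.3% of the HIF-2α lists. All 3 HIF-2α/1α lists lay above all 3 HIF-2α lists, by a mean of 4.84 percentage points, and the exact permutation p was 0.1, the smallest that 3 against 3 libraries can give (adjusted p = 0.22 over 11 such tests).

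With the same number of peaks per list the promoter share was 36.7, 34.1 and 33.2% in HIF-2α/1α and 26.3, 27.6 and 25.3% in HIF-2α, a difference of 8.29 points, again without overlap (exact permutation p = 0.1). At the far end, peaks over 100 kb from any TSS made up 12.7, 13.4 and 12.8% of the full HIF-2α/1α lists against 15.8, 16.7 and 15.8% with HIF-2α. The median distance from summit to TSS was 10345.5 ± 602.3 bp in HIF-2α/1α and 14495 ± 471.4 bp in HIF-2α (SD, n = 3). With lists of equal length these medians moved apart, to 7881.5 ± 1137 and 13414 ± 785.2 bp.

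**Figure D1:**
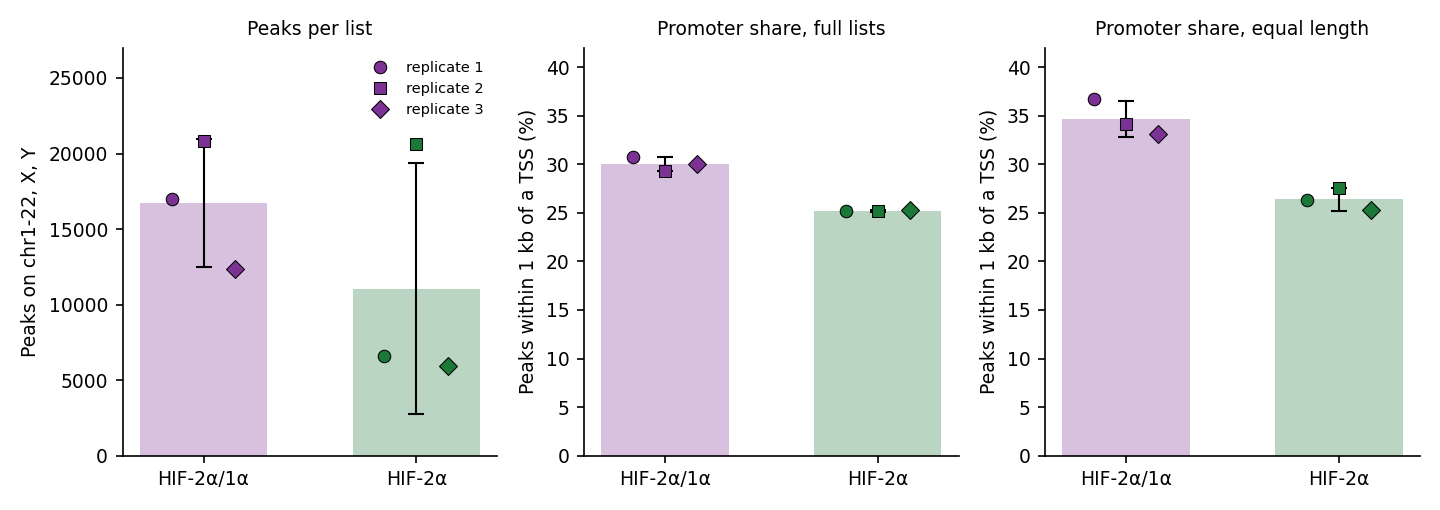
Peaks per list (left) and the percent of peaks with the summit within 1 kb of a TSS in the full lists (middle) and in lists of 5906 peaks (right), for HIF-2α/1α (purple) and HIF-2α (green). Points are libraries, bars the means and whiskers the SD over 3 libraries. The peak numbers overlap, while the promoter shares do not (29.3 to 30.8% against 25.1 to 25.3% in the full lists).

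GC content moved with the promoter share. Within 50 bp of the summit it was 54.8, 54.4 and 54.3% in HIF-2α/1α and 53.3, 52.3 and 52.8% in HIF-2α, with no overlap (difference 1.67 points, exact permutation p = 0.1, adjusted p = 0.22). Within promoter peaks of the full lists it was 64.1 to 65.4% against 63.6 to 64.7%, so that these ranges overlapped. Within other peaks it was 50.0 to 50.2% against 48.3 to 49.5%. In lists of equal length the promoter peaks did not overlap, at 64.85 to 66.28% against 63.59 to 64.79% (difference 1.15 points, exact permutation p = 0.1). Fragments of different GC content can be amplified and sequenced with unequal yield, and the part of this in the promoter share was not tested.

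The HRE itself did not separate the full lists. The HRE excess is the percent of summits with a core within 50 bp, less the percent found on average in equally wide windows that lie 1 kb away on both sides. It was 10.6, 12.2 and 12.6 points in HIF-2α/1α and 14.0, 9.56 and 13.1 points in HIF-2α (difference −0.45, exact permutation p = 0.8). Its sign depended on the setting. In lists of equal length it was 17.3, 18.1 and 16.4 points against 15.5, 15.9 and 13.1, higher in HIF-2α/1α by 2.46 points with no overlap (exact permutation p = 0.1), and in the full lists it also turned positive without HIF-2α/1α replicate 1 (0.153) or HIF-2α replicate 1 (0.442). Promoter peaks held a core more often than other peaks in both lines, at 38.6 ± 1.27% against 21.4 ± 0.915% in HIF-2α/1α and 40.4 ± 2.86% against 21.5 ± 2.50% in HIF-2α (SD, n = 3, full lists).

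The motif TGACTCA, the site of AP-1, a factor common at enhancers, served as a motif that HIF itself does not recognise. The study cites earlier work in which, depending on the cell type, AP-1 motifs were found at HIF-2α sites and other motifs at HIF-1α sites. The TGACTCA excess, computed as for the HRE, was 5.78, 6.12 and 5.66 points in HIF-2α/1α and 7.13, 6.00 and 6.50 points in HIF-2α. The difference was −0.69 (exact permutation p = 0.2). In lists of equal length the groups did not overlap, with 6.03, 6.25 and 6.06 against 7.45, 6.99 and 6.50 points (difference −0.87, exact permutation p = 0.1). AP-1 sites were rarer in promoter peaks (2.34 to 2.61% of HIF-2α/1α promoter peaks) than in other peaks (9.76 to 10.1%). In HIF-2α these ranges were 2.27 to 2.81% and 9.56 to 10.9%. In lists of equal length the mean share in other peaks was 10.9% in HIF-2α/1α and 10.8% in HIF-2α. In promoter peaks of these lists it was 2.52 and 2.74%, and the groups overlapped in both classes of peak.

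The lists of both lines covered the sites of endogenous HIF-2α. Of 5049 regions called in at least 2 of 3 KIN libraries, HIF-2α/1α called 91.6, 96.1 and 86.0% and HIF-2α called 66.2, 94.3 and 60.9% (exact permutation p = 0.3). Of all 25285 regions HIF-2α/1α called 55.1, 69.0 and 41.9% and HIF-2α 21.1, 63.7 and 19.5%, in the same order as list length. With lists of equal length these were 70.7, 71.7 and 70.0% against 64.7, 71.4 and 60.9%. The groups overlapped in both forms.

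Next, regions were sorted by the libraries that called them. In the full lists, 2959 of 22803 regions were called in all 6 libraries. HIF-2α/1α alone, with 3 of 3 libraries against 0 of 3, called 563 regions (2.47%), and HIF-2α alone called 21 (0.0921%). In lists of equal length the counts were 226 (2.23% of 10146 regions) and 104 (1.03%). No test per region is possible, since the exact Fisher p for 3 against 0 libraries cannot go below 0.1. The count for HIF-2α/1α depended on single lists. Omitting HIF-2α replicate 2 gave 2992, omitting HIF-2α/1α replicate 3 gave 1734 and omitting HIF-2α/1α replicate 1 gave 1086. For HIF-2α the count was 123 when its replicate 1 was omitted, 124 when its replicate 3 was, and 64 when HIF-2α/1α replicate 2 was.

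The regions called in 1 line alone differed in position. Of the 563 HIF-2α/1α regions, 41.4% were at promoters, 9.24% lay over 100 kb from a TSS and the mean GC content at the summit was 58.4%. Of the 21 HIF-2α regions, 2 were at promoters and 8 lay over 100 kb away, with a GC content of 46.9%. Over all 22803 regions these values were 29.5%, 13.8% and 54.2%. With lists of equal length the contrast was 52.2% promoters for the 226 regions and 10.6% for the 104, against 31.4% of all 10146.

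An HRE core lay within 50 bp of 37.6% of the 226 HIF-2α/1α summits, 19.2% of the 104 HIF-2α summits and 29.2% of all. GCGTG, the core with more GC, was at 27.9% of the HIF-2α/1α and 9.62% of the HIF-2α summits, against 17.1% of all regions in lists of equal length. ACGTG was at 13.3 and 10.6%, both below the 15.0% of all. The longer TACGTG was at 3.10 and 7.69%, against 3.93%.

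Only 24 HIF-2α/1α regions and 16 HIF-2α regions met the condition in both the full lists and the lists of equal length. Of the 24, 14 were at promoters, and those with the highest fold enrichment lay at SLC66A1 (fold 19.8, 29.4 and 11.3 in the 3 libraries, 53 bp from the TSS), TATDN2 (18.0, 38.0 and 17.0, 8 bp) and FKBP8 (18.0, 19.2 and 11.6, 109 bp). SLC66A1 is a lysosomal amino acid transporter, and FKBP8 is a mitochondrial outer membrane protein that can recruit autophagy proteins. The next 5 by fold were nearest to RNF32, ASTN2, DMBX1, SPRED2 (a brake on RAS signalling) and XRCC1 (a DNA break repair scaffold) and lay 5435 to 81020 bp from a TSS.

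Of the 16 HIF-2α regions, 1 was at a promoter, that of MYL3, a myosin light chain gene (fold 9.00, 41.0 and 14.4, 737 bp from the TSS). The others of highest fold were nearest to SEPTIN10, ST8SIA2, DLGAP2, ANKFN1, SH2D1B, OR5B3 and PDCD6IP and lay 4872 to 463686 bp from a TSS, in introns or between genes. At ANKFN1 the fold was 12.3, 71.5 and 7.97 in HIF-2α replicates 1, 2 and 3.

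The other lines, whose libraries did not choose these regions, carry the same disordered regions on the HIF-1α N-terminal part. HIF-1α libraries, with the HIF-1α disordered region, called 55.4, 74.2 and 63.2% of the 563 HIF-2α/1α regions, and HIF-1α/2α libraries, with that of HIF-2α, called 30.6, 44 and 29.1%. The difference was 29.7 points with no overlap (exact permutation p = 0.1, adjusted p = 0.22). HIF-1α libraries also called more of all 25285 regions, 50.4, 65.2 and 54.1% against 42.1, 54.0 and 39.4% in HIF-1α/2α, so that part of this gap is present over all regions. Of the 21 HIF-2α regions HIF-1α libraries called 14.3, 23.8 and 4.76%, and HIF-1α/2α libraries called 38.1, 95.2 and 61.9%, a difference of −50.8 points, again with no overlap (exact permutation p = 0.1, adjusted p = 0.22). The gap for the 21 regions runs against that over all regions, and 3 against 3 libraries cannot reach a smaller p.

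The same order held in lists of equal length. HIF-1α libraries called 65.9, 66.8 and 68.1% of the 226 regions, against 38.9, 40.3 and 42% in HIF-1α/2α, and 13.5, 19.2 and 18.3% of the 104 regions, against 51.9, 60.6 and 57.7%. Over all 15102 regions of these lists the libraries of both lines called 36.3 to 37.0%, so that list length did not separate them. Of the 24 regions of HIF-2α/1α that met both conditions, HIF-1α libraries called 91.7, 100 and 95.8% and HIF-1α/2α libraries 45.8, 54.2 and 41.7%. WT libraries, the background, called 0, 8.53 and 0.178% of the 563 regions and 0% of the 21. KIN libraries called 3.55, 21.5 and 13.9% of the 563, and 11.8, 32.2 and 23.7% of all 25285 regions. Although KIN carries the HIF-2α disordered region, its libraries called only 0, 0 and 4.76% of the 21.

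**Figure D2:**
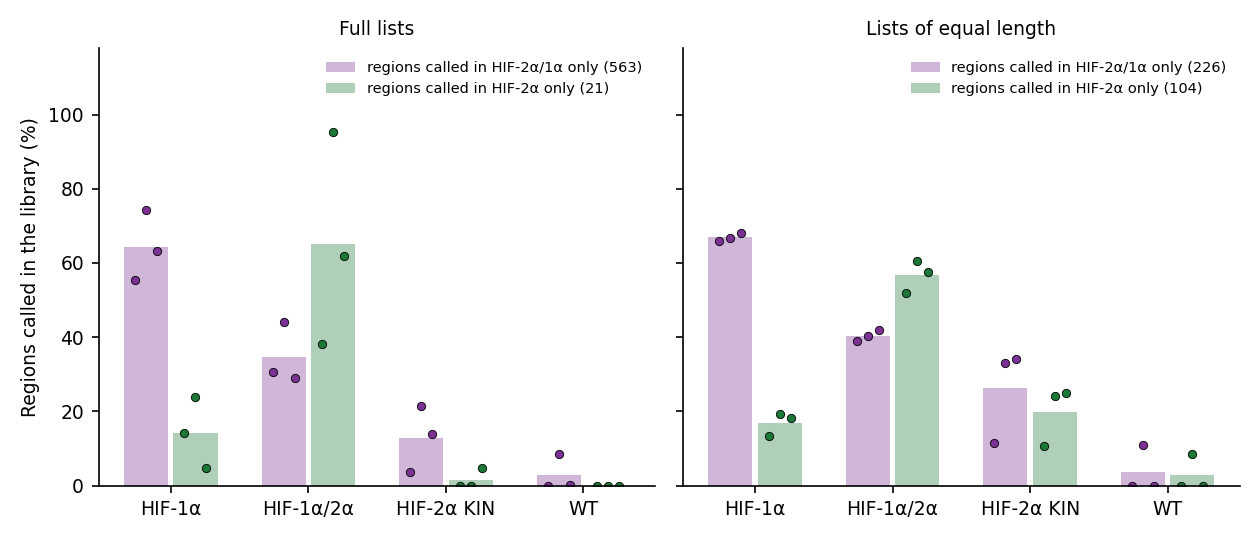
Percent of the regions called only in HIF-2α/1α (purple) or only in HIF-2α (green) that each library of the other lines calls, in full lists (left) and lists of equal length (right). Points are libraries and bars their means (n = 3). HIF-1α libraries lie above HIF-1α/2α libraries for the purple regions and below them for the green ones, in both panels.

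To compare the signal at a site rather than whether it was called, summit values were compared over the 2959 regions that all 6 libraries called. The deposited fold enrichment divides the pile at the summit by a local background that differs between lists. With limma on log2 fold, each library's median subtracted, 2 regions were higher (0.0676%) and 12 lower (0.406%) in HIF-2α/1α at an adjusted p of 0.05. The replicate numbers were taken to pair the libraries of both lines, which the labels do not state. With the replicate as a block 9 were higher and 21 lower.

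The fragments at each summit were also recovered from the deposited fold and p-value. They are given below as the level, the fragments at the summit divided by the library's median over the 2959 regions. A level of 1 is the median region. Unlike the fold, the level has no local background divided out. On log2 levels 279 regions (9.43%) were higher and 396 (13.4%) lower in HIF-2α/1α by limma with Benjamini-Hochberg adjustment, and 473 (16%) and 611 (20.6%) with the replicate block. With levels adjusted for GC 220 (7.43%) were higher and 332 (11.2%) lower. The residual spread was smaller for fragments (median SD 0.258) than for fold (0.560). In 1131 regions (38.2%) the 6 levels did not overlap between the lines. All these differences are relative to the median region. Before the medians were subtracted the median of all regions was higher in HIF-2α/1α by 0.54 and 0 regions passed in either direction (165 higher and 16 lower at an unadjusted p under 0.05). Leaving out HIF-2α/1α replicate 1, 2 or 3 lowered the 279 to 145, 155 or 174.

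Position separated the 2 groups of regions. Of the 279 higher regions, 55.6% were promoters, 1.43% lay over 100 kb from a TSS and the mean GC content was 62.9%. Of the 396 lower regions, 6.31% were promoters, 30.3% lay over 100 kb away and the GC content was 47.9%. Over all 2959 regions the values were 28.4%, 13.9% and 55.1%. Read the other way, of 841 promoter regions 155 were higher (18.4%) and 25 lower (2.97%), with a median log2 difference of 0.28. Of 412 regions over 100 kb from a TSS 4 were higher (0.971%) and 120 lower (29.1%), with a median of −0.38. With the replicate block these counts were 256 and 54 for promoters and 17 and 164 over 100 kb.

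Regions at 1 to 10 kb (36 higher and 65 lower of 570, median −0.10) and at 10 to 100 kb (84 and 186 of 1136, median −0.13) lay between these ends, at 73 and 122 and at 127 and 271 with the block. When each library's levels were first adjusted for GC content, the promoter counts were 74 higher and 48 lower (median 0.12) and the counts over 100 kb were 10 and 89 (median −0.21). The adjustment thus lowered the promoter count of higher regions by more than 1.5 times, while over 100 kb most called regions were lower with and without it.

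**Figure D3:**
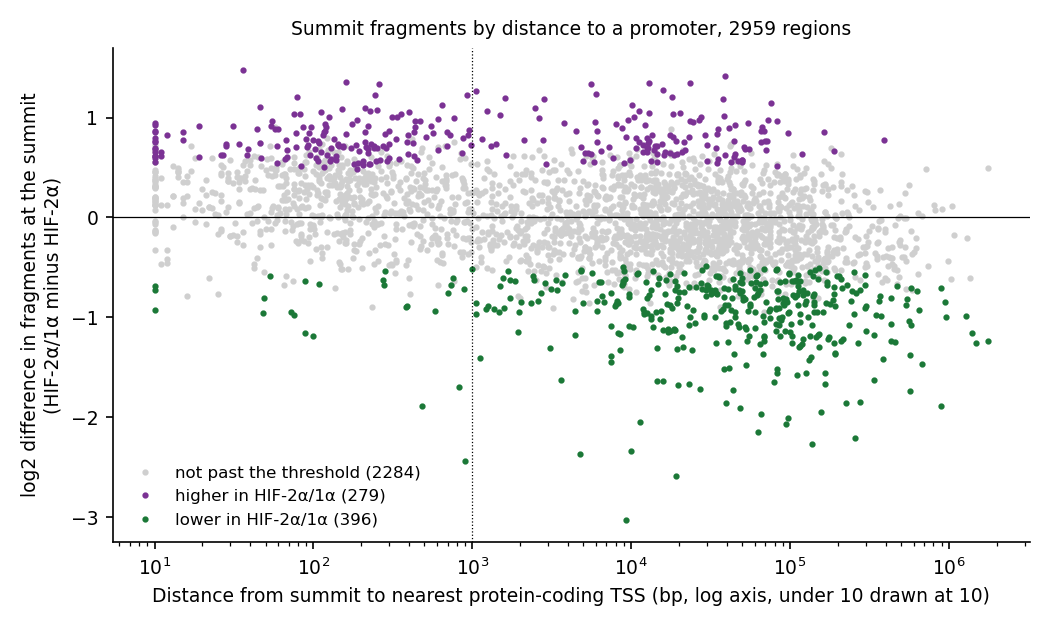
Log2 difference in fragments at the summit (HIF-2α/1α minus HIF-2α, library medians subtracted) against the distance to the nearest TSS on a log axis, for 2959 regions. Purple points passed as higher (279), green points as lower (396), and the dotted line marks 1 kb. Left of the line purple points outnumber green ones (155 against 25), and over 100 kb green ones outnumber purple (120 against 4).

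Position was also examined within bins of GC content. Among promoters with a GC content over 60%, 129 of 595 were higher and 16 lower (median 0.32), and among promoters of up to 50% GC 4 of 77 were higher and 4 lower (median 0.04). Among other regions of over 60% GC, 51 of 435 were higher and 32 lower (median 0.05), and among those of up to 50% GC 24 of 967 were higher and 239 lower (median −0.30). Both within promoters and outside them, then, the share of higher regions was larger in the GC-rich bins. At 50 to 60% GC, 22 of 169 promoters were higher and 5 lower (median 0.20). Of 716 other regions in that bin, 49 were higher and 100 lower (median −0.10). The median GC of this bin was 55.4% at promoters and 54.5% elsewhere. The bin over 60% still differed in GC, with a median of 69.3% at promoters and 64.4% elsewhere. After the adjustment for GC the bin over 60% held 38 higher and 40 lower promoters (median 0.07) and 21 higher and 66 lower other regions (median −0.12). The bin of 50 to 60% then held 24 higher and 6 lower promoters (median 0.18) and 52 and 95 other regions (median −0.07). The bin of up to 50% held 12 and 2 promoters (median 0.29) and 73 and 123 other regions (median −0.03).

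By motif and without the block, 130 of 953 regions with an HRE core were higher and 96 lower (median 0.08), against 149 and 300 of the 2006 without (median −0.10). Regions with GCGTG stood higher (87 and 32 of 523, median 0.19) than regions with ACGTG (64 and 71 of 558, median 0.01). TACGTG regions went the other way, with 9 higher and 26 lower of 158 (median −0.12), as did regions with the AP-1 site, 11 higher and 44 lower of 265 (median −0.13). With the block the counts were 211 and 153 with an HRE and 262 and 458 without, 141 and 54 with GCGTG, 105 and 112 with ACGTG, 16 and 40 with TACGTG and 26 and 67 with the AP-1 site. After the adjustment for GC the median was 0.04 with GCGTG, −0.01 with ACGTG, −0.12 with TACGTG and −0.09 with the AP-1 site. Within promoters an HRE made little difference to the median (0.32 with, 0.24 without), and outside promoters it was −0.08 with and −0.19 without.

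A single value per library sums up this shift: the median log2 level of the 841 promoter regions minus that of the 1548 regions over 10 kb from a TSS. It was 0.27, 0.09 and 0.16 in HIF-2α/1α and −0.21, −0.39 and −0.25 in HIF-2α. Promoters exceeded distal regions in all 3 HIF-2α/1α libraries and fell short of them in all 3 HIF-2α libraries, a difference of 0.45 (exact permutation p = 0.1, adjusted p = 0.22). Over the 1602 regions called in all 15 tagged libraries (450 promoters and 834 distal regions) the values were 0.23, −0.11 and −0.09 in HIF-2α/1α and −0.31, −0.50 and −0.36 in HIF-2α, a difference of 0.41. On the HIF-1α N-terminal part, HIF-1α had 0.21, 0.05 and 0, and HIF-1α/2α had −0.32, −0.43 and −0.22, also a difference of 0.41 (exact permutation p = 0.1 for both). The KIN libraries had −0.05, −0.21 and −0.25, a range that overlaps those of HIF-2α/1α and HIF-1α/2α. Although KIN carries the HIF-2α disordered region, all 3 of its libraries lay above all 3 of exogenous HIF-2α.

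**Figure D4:**
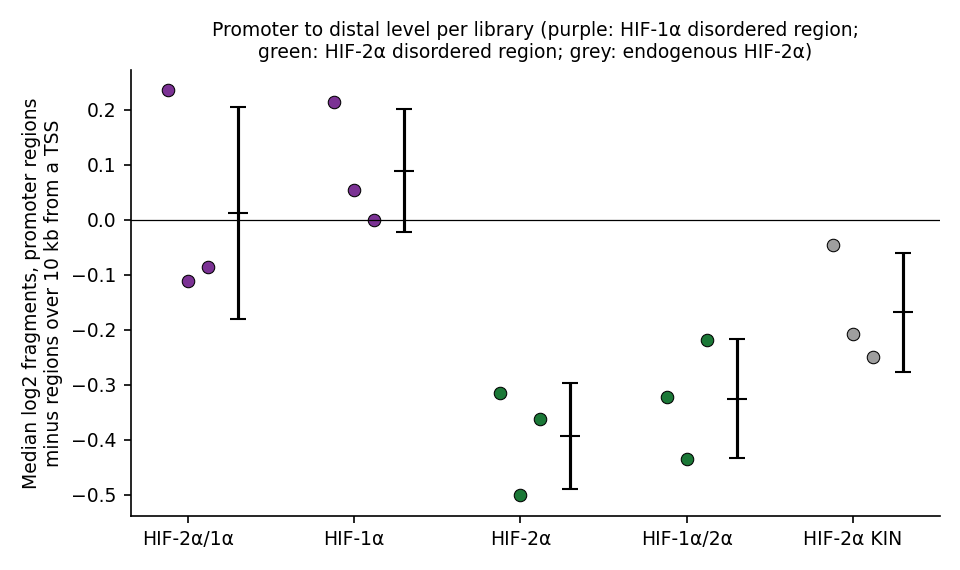
Median log2 fragments at promoter regions minus that at regions over 10 kb from a TSS, over 1602 regions called in all 15 tagged libraries. Points are libraries and whiskers the mean and SD (n = 3). The purple lines with the HIF-1α disordered region lie at −0.11 to 0.23, above the exogenous green lines with that of HIF-2α at −0.50 to −0.22. The KIN libraries, also with that of HIF-2α, lie at −0.25 to −0.05 and overlap both.

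Of the 10 regions with the largest decrease in HIF-2α/1α, 8 were intronic. At SLAMF7, which encodes an immune cell surface receptor, the level was 0.246, 0.308 and 0.304 in HIF-2α/1α and 1.97, 2.25 and 2.83 in HIF-2α. All 3 HIF-2α/1α libraries lay far below the 3 HIF-2α libraries, and the log2 difference was −3.03 (SE 0.231, limma adjusted p = 7.46e-09). At CYTIP, which encodes a partner of cytohesins in leukocytes, the level was 0.246, 0.568 and 0.652 against 1.97, 2.79 and 3.61, a difference of −2.59 (limma adjusted p = 9.57e-07). CYTIP was also among the 12 lower regions by deposited fold (−2.21, adjusted p = 0.0156). HIF-2α KIN called neither region in any of its 3 libraries, and WT called neither.

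At HSD3B7, which encodes an enzyme of bile acid synthesis, the region chr16:30984993-30986908 has its summit in a coding exon 898 bp from the TSS, beside the ACGTG printed above. Its level was 0.877, 0.589 and 0.50 in HIF-2α/1α and 3.00, 3.68 and 3.70 in HIF-2α. The groups lay apart by −2.43 on the log2 scale (SE 0.209, limma adjusted p = 4.02e-08), and it was the only 1 of these 10 within 1 kb of a TSS. By deposited fold the difference was −0.86 and did not pass (adjusted p = 0.582). The study chose this locus on these samples, so that its direction here is no independent evidence.

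A region in an intron near EGLN3, which encodes the HIF prolyl hydroxylase PHD3 and is itself a HIF target, had a level of 0.421, 0.562 and 0.370 in HIF-2α/1α and 2.17, 2.05 and 1.70 in HIF-2α. The groups did not overlap (log2 difference −2.14, limma adjusted p = 5.66e-07, and −2.14 by fold, adjusted p = 0.0183). Near RORA, a nuclear receptor gene, an intronic region lies 256547 bp from the TSS. Its level beside the minus-strand ACGTG printed above was 0.228, 0.146 and 0.196 against 0.724, 0.817 and 1.09 (−2.21, limma adjusted p = 2.02e-05). The others of the 10 were nearest to C5orf46, ARHGEF4, TRHR (the thyrotropin-releasing hormone receptor), NTF3 (neurotrophin-3) and WNK2 (a kinase), with log2 differences of −2.36 to −2.05. All 10 kept an adjusted p under 0.05 with GC adjustment, with the replicate block and with quantile normalization, though not without centring. By deposited fold only CYTIP and EGLN3 of the 10 passed.

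The 12 regions that were lower by deposited fold all passed on fragments too. Besides CYTIP and EGLN3 they lay nearest to CHST15, PPP2R2C, LSM8, KLF6, CITED2, BACH1, BCL6, C8orf90, BCL11B and SLC38A4. Nearest does not mean close, since the KLF6 region lay 457464 bp and the BCL11B region 888536 bp from the TSS. BACH1, a heme-sensitive repressor, had a level of 1.32, 1.39 and 1.35 at an intronic region in HIF-2α/1α and 4.45, 4.77 and 5.52 in HIF-2α, which lay apart (−1.86, limma adjusted p = 9.84e-08). BCL6, a repressor of B cell differentiation, was the sole promoter among them, with the summit 481 bp from the TSS and levels of 0.368, 0.341 and 0.304 against 1.34, 1.14 and 1.26 (−1.89, limma adjusted p = 6.77e-06). CITED2 competes with HIF for its coactivators, and its region 677170 bp from the TSS had 0.667, 0.535 and 0.717 against 1.45, 1.69 and 2.22 (−1.47, limma adjusted p = 4.64e-05). The SLC38A4 region lies 66062 bp from the TSS of this amino acid transporter gene, beside the GCGTG printed above. It was at 0.175, 0.254 and 0.261 against 1.00, 0.667 and 1.04 (−1.97, limma adjusted p = 5.43e-05).

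Regions with a higher relative level in HIF-2α/1α differed by less. The 10 with the largest difference had log2 values of 1.23 to 1.47, against −3.03 to −2.05 for the 10 lowest. The fitted regions leave out the 563 called in HIF-2α/1α alone and the 21 called in HIF-2α alone. Levels are also relative to a median region that was higher in HIF-2α/1α by 0.54 before centring. The part of either in this gap was not tested. An intergenic region lies 23529 bp from the TSS of SLC25A10, which encodes a mitochondrial dicarboxylate carrier. Its levels were 2.18, 2.53 and 2.13 in HIF-2α/1α and 0.724, 0.875 and 1.13 in HIF-2α. These did not overlap (1.34, SE 0.199, limma adjusted p = 4.64e-05), and the summit lies 24 bp from the GCGTG printed above. At ATP2B1, a plasma membrane calcium pump gene, the promoter region was at 2.05, 2.59 and 2.48 against 0.759, 1.03 and 1.04 (1.34, limma adjusted p = 3.87e-05). Both regions were called in 3 of 3 HIF-1α and 3 of 3 HIF-1α/2α libraries, and also in 1 of 3 untagged WT libraries.

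At CNOT8, a subunit of a deadenylase complex, the level was 1.14, 1.29 and 1.65 in HIF-2α/1α and 0.897, 0.292 and 0.435 in HIF-2α (1.47, limma adjusted p = 0.00121). At ATP5PO, an ATP synthase subunit gene, it was 1.26, 1.37 and 1.22 against 0.172, 0.758 and 0.957 (1.36, limma adjusted p = 0.0140). The HIF-2α libraries varied widely at both, and neither overlapped with HIF-2α/1α. Without HIF-2α replicate 1 the ATP5PO difference was 0.59 (limma adjusted p = 0.0538), and without HIF-2α/1α replicate 3 its adjusted p was 0.0523. HDAC5, a class IIa histone deacetylase gene, had 0.895, 0.60 and 0.957 against 0.276, 0.30 and 0.478 (1.23, limma adjusted p = 0.00390). The others of the 10 were nearest to NGFR, SAMD11, FAM131A, CRB2 (a cell polarity protein) and MIB2 (a ubiquitin ligase of Notch signalling). All 10 passed on fragments with GC adjustment and with the block, and 0 of the 10 passed by deposited fold.

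The 2 regions that were higher by deposited fold did not pass on fragments. At MAFF, a small Maf factor, the fold difference was 1.99 (adjusted p = 0.0226, and 1.24 with adjusted p = 0.481 without HIF-2α replicate 2), and the levels were 0.632, 0.795 and 0.609 against 0.517, 0.375 and 0.565 (0.49, limma adjusted p = 0.187). At CAVIN3, a caveolar coat protein, the fold difference was 1.88 (limma adjusted p = 0.0316) and that of the level 0.49 (adjusted p = 0.128, and 0.0454 with the replicate block).

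The same swap on the HIF-1α N-terminal part, HIF-1α against HIF-1α/2α, uses none of these 6 libraries. Over 2566 regions called in all 12 exogenous libraries, 269 regions (10.5%) were higher and 446 (17.4%) lower in HIF-1α by limma on fragments. Of the 251 regions there that were higher in HIF-2α/1α than in HIF-2α, 234 (93.2%) had a positive difference on the HIF-1α N-terminal part, with a median of 0.53. Of the 354 that were lower, 335 (94.6%) had a negative difference, with a median of −0.79. Over all 2566 regions 49.5% were positive, with a median of −0.01.

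Of the calls themselves, 122 higher regions were shared, which is 48.6% of the 251 and 45.4% of the 269. Of the lower regions 240 were shared, 67.8% of the 354 and 53.8% of the 446. The correlation between the 2 differences was r = 0.73 (0.71 by ranks) across 2566 regions, a description only, since regions are not replicates and share depth and base composition between lines. A test of whether the swap acts differently on the 2 N-terminal parts found 0 regions by fold (64 and 67 at an unadjusted p under 0.05) and 3 by fragments.

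**Figure D5:**
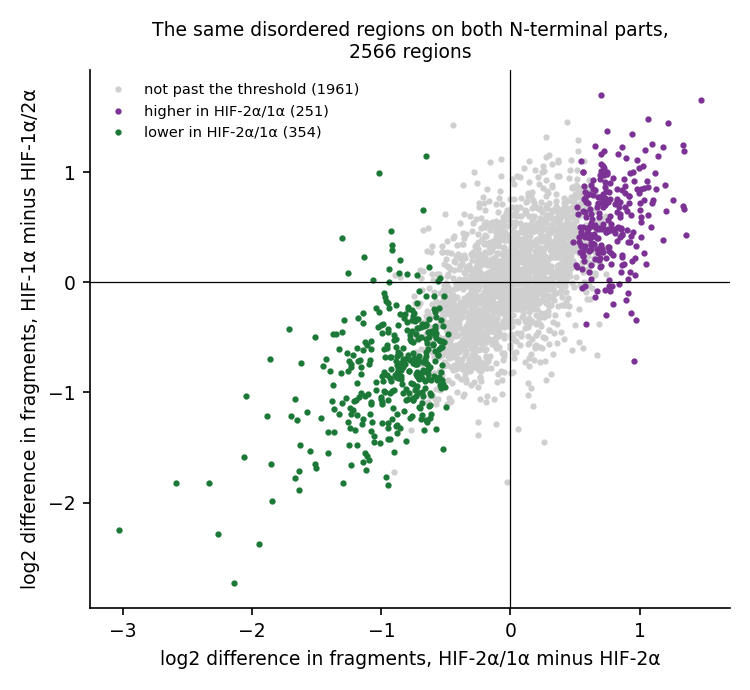
Log2 difference in fragments at the summit for the swap on the HIF-2α N-terminal part (horizontal, HIF-2α/1α minus HIF-2α) and on the HIF-1α N-terminal part (vertical, HIF-1α minus HIF-1α/2α) over 2566 regions. Purple and green points passed as higher (251) or lower (354) on the HIF-2α N-terminal part. Most purple points (234) lie above 0 and most green points (335) below 0 on the vertical axis, which was measured in other libraries.

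The loci that the study gives as examples were chosen on these samples and are described here for their levels alone. PTPRN, a secretory granule protein gene, had an intronic region 2646 bp from the TSS with levels of 3.82, 2.14 and 2.3 in HIF-2α/1α and 1.62, 1.11 and 1.30 in HIF-2α. The groups did not overlap (log2 difference 1.00, limma adjusted p = 0.00176). PPFIA4, a liprin gene, had a promoter region with levels of 3.63, 2.13 and 1.85 against 2.3, 1.12 and 1.22 (0.74, limma adjusted p = 0.0347). These overlapped, since HIF-2α replicate 1 lay above 2 of the HIF-2α/1α libraries, and after adjustment for GC the difference no longer passed (adjusted p = 0.0987).

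At TGFA, which encodes a growth factor for the EGF receptor, the 2 fitted regions differed in behaviour. The intronic region was at 2.96, 3.33 and 3.13 against 2.55, 2.83 and 2.74 and did not pass (0.22, limma adjusted p = 0.374). The region 43032 bp upstream, whose summit lies 6 bp from the ACGTG printed above, was at 7.61, 8.48 and 5.83 in HIF-2α/1α against 12.1, 14.6 and 11.4 in HIF-2α (−0.81, limma adjusted p = 0.00698). Its groups did not overlap. The glycolytic gene PGK1 had 2.18, 1.70 and 1.07 against 2.93, 2.22 and 2.26 at its promoter (−0.63, limma adjusted p = 0.0373).

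At the PLXNA2 locus, the intergenic region chr1:208007501-208008566 was at 0.456, 0.443 and 0.609 in HIF-2α/1α against 1.79, 2.24 and 2.00 in HIF-2α (−2.01, limma adjusted p = 7.09e-07), with no overlap. The nearest TSS to this region is that of CD34, 96776 bp away, and 1 of 3 WT libraries also called it. The second region at the HSD3B7 locus lies in ORAI3, a calcium channel gene, and was at 3.00, 3.37 and 3.41 against 1.93, 2.33 and 2.78 (0.49, limma adjusted p = 0.0516, and 0.00143 with the replicate block). Neighbouring sites of 1 locus thus had values of opposite sign.

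Known HIF targets were examined through lists of genes, by the regions nearest to their TSS. The counts are calls on fragments relative to the median region, and without centring 0 regions passed in either direction. These counts are to be read against 9.43% higher and 13.4% lower over all 2959 regions, or 16% and 20.6% with the replicate block. Of 39 regions of glucose uptake and glycolysis genes, 0 were higher and 3 (7.69%) lower, near HK2 (55231 bp from the TSS), TPI1 and PGK1, with a median log2 difference of −0.14 against −0.04 over all 2959. HK2 encodes the first enzyme of glycolysis, and its region was at 1.46, 0.995 and 0.543 in HIF-2α/1α against 2.24, 2.18 and 1.91 (−1.19, limma adjusted p = 0.00157). Promoters of the pathway were bound in both lines: 19 of the 24 genes had a promoter peak in all 6 libraries, as had 953 (4.85%) of all 19663 protein-coding genes. At their promoters ENO1 (0.29, limma adjusted p = 0.282) and PDK1 (0.00, adjusted p = 0.992) did not pass, and LDHA (−0.44, adjusted p = 0.17) passed with the replicate block (adjusted p = 0.00198). With the block the list had 4 higher and 11 lower regions, and with GC adjustment 0 and 7. The 17 promoter regions of the list had a median of −0.18, while all 841 promoter regions had 0.28.

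Of 15 regions of angiogenic and vasoactive genes, 2 were higher and 2 lower (13.3% each), near the shares over all regions. Among the lower ones was the promoter of ADM, which encodes the vasodilator adrenomedullin, at 0.333, 0.265 and 0.348 in HIF-2α/1α against 0.621, 0.508 and 0.739 in HIF-2α (−0.97, limma adjusted p = 0.0171). VEGFA did not pass at its promoter (−0.48, limma adjusted p = 0.0663), except with the replicate block (adjusted p = 4.07e-04) or GC adjustment (0.0347). The higher ones were 2 regions near HMOX1, heme oxygenase 1, at 8081 and 29237 bp from its TSS (0.93 and 0.82, limma adjusted p = 0.00161 and 0.00357).

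Of 31 regions of genes linked to growth and to HIF-2, 0 were higher and 7 (22.6%) lower, with a median of −0.35. They were HSD3B7, 3 regions near EGFR, the upstream TGFA region, NDRG1 and SLC7A5, an amino acid transporter. At EGFR, the receptor of TGFA, the region 34399 bp from the TSS was at 0.474, 0.595 and 0.630 in HIF-2α/1α against 1.03, 1.53 and 1.52, without overlap (−1.25, limma adjusted p = 4.76e-04). With the replicate block 19 of the 31 were lower and 0 higher, and with GC adjustment 6 and 0. The list counts HSD3B7 and TGFA, which the study chose on these samples.

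Genes of oxygen sensing and chromatin dioxygenases had 24 regions, 4 higher (16.7%) and 7 lower (29.2%). The lower ones were 4 regions of 1 gene, EGLN3, from −2.14 to −0.57, 2 CITED2 regions and the promoter of BHLHE40, a repressor induced by hypoxia. BHLHE40 was at 3.4, 2.68 and 2.61 against 4.83, 4.72 and 4.13 (−0.66, limma adjusted p = 0.00936). The higher ones were KDM4C (0.76) and KDM6B (0.62), both histone demethylase genes, and 2 intronic regions near EPAS1, the gene of HIF-2α (1.20 and 0.81). The integrated cassettes carry EPAS1 coding sequence, the whole of it in HIF-2α cells and its first part, joined to HIF-1α sequence, in HIF-2α/1α cells. The summits of the 2 EPAS1 regions lie in introns, 18186 and 23159 bp from the TSS, outside that coding sequence. Any part of the cassettes in these values was not tested.

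Among 21 regions of genes for mitophagy, pH and the respiratory switch, MXI1, PPFIA4 and PTPRN were higher and CA12 lower. The carbonic anhydrase gene CA12 was at 5.47, 4.69 and 4.72 against 7.93, 7.65 and 7.17 in HIF-2α (−0.62, limma adjusted p = 0.0164). Among 12 regions of AP-1 subunit genes, 3 near JUN were lower (−1.19 to −0.89) and 1 near FOSL2 was higher (0.91). At the JUN promoter the level was 1.89, 1.75 and 1.67 against 2.90, 3.35 and 3.61, which do not overlap. Of 9 regions of collagen-modifying enzymes 1 was higher, at the P4HB promoter (0.73), and of 8 regions of kidney lineage factors 2 were lower, near OSR1 (−1.08) and WT1 (−0.58). Ribosomal protein genes, a list outside the HIF response, had 4 regions, of which 1, near RPL3, was higher (0.55).

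Over all lists 12 of 158 regions were higher (7.59%) and 25 lower (15.8%), close to the shares over all 2959. By deposited fold 1 of the 158 was higher, at MAFF, and 2 were lower, at EGLN3 and CITED2. After the adjustment for GC 29 of the 37 still passed, and PPFIA4, MXI1, KDM6B, P4HB, RPL3, WT1, 1 EGLN3 region and 1 EGFR region did not. With the replicate block all 37 passed, and the counts were 3 higher and 4 lower for AP-1 subunits, 2 and 4 for angiogenic genes, 1 and 4 for collagen-modifying enzymes, 5 and 2 for mitophagy and pH, 5 and 9 for oxygen sensing, 1 and 2 for kidney lineage factors and 2 and 0 for ribosomal proteins.

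Calls at promoters were compared gene by gene as well. In the full lists, 251 of 19663 protein-coding genes (1.28%) had a promoter peak in every HIF-2α/1α library and none in any HIF-2α library, and 3 (0.0153%), GFRA2, MYL3 and RAP2B, had the reverse. With lists of equal length the counts were 136 (0.692%) and 12 (0.0610%). Without HIF-2α replicate 2 the first count was 1332, and without HIF-2α/1α replicate 3 it was 694. The 12 genes were ADM, ANGPTL4, BCL6, DUSP5, FAM107B, HDLBP, MNT, MYL3, PGBD2, PMP22, SEPTIN2 and UPP1. Of these BCL6 and UPP1 had such a peak in 3 of 3 HIF-1α/2α libraries and 0 of 3 HIF-1α libraries, whereas ADM had it in 0 of 3 of both and in 3 of 3 KIN libraries.

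A difference of at least 2 libraries is a looser rule. By it 2018 genes (10.3%) had more HIF-2α/1α and 26 (0.132%) more HIF-2α libraries with a promoter peak in the full lists, and 635 (3.23%) and 91 (0.463%) in lists of equal length. Among the 154 list genes the full lists gave 15 with more HIF-2α/1α libraries, among them ALDOC, PFKP, EDN1, HMOX1, ADORA2B, KDM6B, HIF1A, EPAS1, CA12 and LOXL1, and 5 were ribosomal protein genes, so that the list outside the HIF response moved with the others. The only list gene with more HIF-2α libraries was RPL7, with 2 against 0. In lists of equal length only P4HA2, with 2 against 0 libraries, had more in HIF-2α/1α. ADM, ANGPTL4 (a regulator of lipoprotein lipase), SLC2A3 (a glucose transporter), PLAUR (the urokinase receptor) and RPL10 had more in HIF-2α, at 3 or 2 libraries against 0 or 1.

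ANGPTL4 shows how a call and a level can part. Its promoter peak was called in 3 of 3 libraries of both lines in the full lists and in 0 against 3 in lists of equal length. The level at that region, 49 bp from the TSS, was 0.333, 0.243 and 0.239 in HIF-2α/1α and 0.448, 0.308 and 0.435 in HIF-2α, with overlap, and did not pass (−0.54, limma adjusted p = 0.235). The stronger region 1050 bp from the TSS was at 4.47, 4.57 and 2.72 against 4.55, 4.06 and 3.70 (−0.10, limma adjusted p = 0.75).

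Finally, whole lists were compared in pairs. The Jaccard index, the regions called in both libraries of a pair over those called in either, was 0.542 ± 0.0422 within HIF-2α/1α, 0.346 ± 0.0945 within HIF-2α (SD over 3 pairs each) and 0.393 ± 0.125 between the lines (9 pairs). The mean between lines minus the mean within was −0.0507 (exact permutation p = 0.3), and it turned positive without HIF-2α/1α replicate 1 (0.00718) or 2 (0.00890). In lists of equal length the indices were 0.623 ± 0.0199, 0.496 ± 0.0364 and 0.501 ± 0.0518.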

How the data were processed

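Per the labels and the study's methods, each line had 3 biological replicates, each with an anti-V5 and a mouse IgG library. The authors aligned reads to hg38 with bowtie2 2.3.4.1 (local mode, fragments of 10 to 700 bp), called peaks with MACS2 separately in each anti-V5 library, with IgG of the line as control (q 0.01, maximum gap 400 bp, duplicates kept), and removed blacklisted regions with BEDTools 2.28.0. In each deposited list the fold enrichment at the summit is a ratio over the local background, and the −log10 p and −log10 q were given by MACS2 as deposited. Duplicate fragments are not independent molecules, and a region without a peak was not called, which does not show it unbound. IgG reads were not analysed here.

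From these lists peaks were merged at 1 bp overlap, and whole fragments and background at each summit were recovered from fold and −log10 p, which also gives the depth. In every one of the 6 lists 100% of peaks matched whole fragments, within 0.001 of the deposited −log10 p (0.01 in HIF-2α/1α replicate 2, whose pile was scaled by 0.949). Genes are GENCODE release 44, named by nearest protein-coding TSS. Sequences are from the hg38 genome. Libraries were compared by two-sided exact permutation tests (20 relabellings, Benjamini-Hochberg over 11 tests), and regions called in all 6 by limma 3.58.1 (R 4.3.3) with trend and Benjamini-Hochberg adjustment, on deposited log2 fold as the first choice and on fragments as a second measure. The further alternatives on fragments, GC adjustment included, and the promoter to distal level were added after seeing the data. The fitting code was tested on simulated data in which 200 of 2959 regions were changed. A log2 change of 1 was recovered in 72% of these on fragments and in 0% on fold. At a log2 change of 2 the shares were 100 and 66%, and at 0.5 they were 0% on both. Named regions were all 14 past the threshold on fold, the 10 with the largest difference per direction on fragments, the 8 of highest fold per direction among regions called in 1 line, the study's loci and list genes. Same-numbered libraries of both lines deviated together, and the numbers were taken to pair them. The correlations of deviations were 0.116, 0.202 and 0.114 for fold and 0.241, 0.364 and 0.213 for fragments. For other pairs they were −0.128 to 0.0297 and −0.208 to −0.0494. Deviations from a mean of 3 libraries cancel within a line, so positive same-numbered values by themselves lower those of other pairs. The labels give only the numbers, and the pairing is an assumption drawn from the values tested. Python 3.11.15, NumPy 2.4.6, SciPy 1.17.1, pandas 2.3.3, pysam 0.24.0 and matplotlib 3.10.9 were used. The members, gene lists and tests were chosen with earlier results of these data known. No protein sequences were used here. A result at 1 gene is not reported here.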

Additional observations from a re-analysis of the deposited data

Results flagged for a closer look

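In 3 regions the effect of the disordered region differed between the 2 DNA-binding parts by a test of the difference itself, on fragments with limma and Benjamini-Hochberg adjustment over 2566 regions. All 3 were intronic, and by deposited fold 0 regions passed this test. At PRKCE, which encodes a protein kinase C, 73035 bp from the TSS, the log2 difference was 0.97 on the HIF-2α N-terminal part (HIF-2α/1α minus HIF-2α) and −0.34 on the HIF-1α N-terminal part (HIF-1α minus HIF-1α/2α), so that the effects differed by 1.32 (SE 0.245, limma adjusted p = 0.0161). At TIAM2, a Rac exchange factor gene, 43303 bp from the TSS, they were −0.03 and −1.81 and differed by 1.79 (SE 0.305, adjusted p = 0.00737). At TRPM2, a calcium channel gene, 48807 bp from the TSS, they were −0.65 and 1.15 and differed by −1.79 (SE 0.283, adjusted p = 0.00527). The cause was not tested.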

How the results depend on the processing

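The promoter share, GC content, AP-1 excess, peak width, promoter to distal level, endogenous share, peak number and shares of regions called in 1 line in the other lines kept their direction in every alternative run for them, and no exact test of 3 against 3 libraries can pass 0.05. The HRE excess turned from −0.45 to 2.46 points in lists of equal length and ranged from −1.78 to 0.442 when 1 library was left out (0.153 without HIF-2α/1α replicate 1, 0.442 without HIF-2α replicate 1). List similarity ranged from −0.205 to 0.00890 (0.00718 without HIF-2α/1α replicate 1, 0.00890 without replicate 2). Regions called in 1 line moved from 563 and 21 to 226 and 104 in lists of equal length and to 607 to 2992 and 23 to 124 with 1 library left out. Genes moved from 251 and 3 to 136 and 12, and to 271 to 1332 and 4 to 12.

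By deposited fold the 2 higher and 12 lower regions became by limma 0 and 0 without centring (285 and 16 at an unadjusted p under 0.05), 279 and 396 on fragments, 9 and 21 with the replicate block, 2 and 7 over regions called in all 12 exogenous libraries and 0 to 1 and 0 to 6 with 1 library left out (0 and 0 without HIF-2α/1α replicate 3 or HIF-2α replicate 1). On fragments, with alternatives chosen after seeing the data, the 279 and 396 became 473 and 611 with the replicate block, 0 and 0 without centring and 145 to 281 and 284 to 396 with 1 library left out. The test between the N-terminal parts gave 0 and 0 by fold and 2 and 1 on fragments. On fragments quantile normalization gave 341 and 337, GC adjustment 220 and 332, and block with GC adjustment 353 and 512. Beside these and the values given with the results, the replicate block changed no call, and under it no exact p was below 0.25. Depth was lowest in HIF-2α replicate 3 (0.2534 fragments per base) and HIF-2α/1α replicate 3 (0.2926), where weak sites are most easily missed.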
